A study of Mus musculus with 8 samples.

Results

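Microglia are the resident macrophages of the brain, and in the healthy brain they carry a set of receptors and regulators that is largely lost when they are isolated, cultured or strongly activated. The set is therefore called homeostatic. It holds receptors for nucleotides, lipids and chemokines with which microglia sense neurons and injury, surface proteins by which they are told from other macrophages, and a transcription factor that maintains their identity. Here 9 genes of this set were followed: P2ry12, P2ry13, Gpr34, Cx3cr1, Fcrls, Siglech, Tmem119, Olfml3 and Sall1. They were chosen by name as homeostatic microglia genes, and each was found by its symbol in both deposited tables, so 9 of the 54532 genes in the table of PTS + RS and RS and 9 of the 28229 genes in the table of RGFP109 and vehicle were described.

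RNA-seq was carried out on 8 libraries of brain tissue from C57BL/6 mice, all taken on Day 21. In PTS + RS, a photothrombotic stroke of the cortex, made by light on the skull after injection of Rose Bengal, was combined with restraint stress, and RS mice had restraint stress without stroke. Each of these groups had 2 libraries labelled cortex. The other experiment gave PTS + RS mice either RGFP109 or vehicle, which the labels name NaCl. RGFP109 is an inhibitor that the study describes as selective for histone deacetylases 1 and 3. It was given at 60 mg/kg under the skin once a day for 2 weeks, while a figure legend of the study gives 21 days. The RGFP109 and vehicle groups also had 2 libraries each, and in both of them replicate 1 was labelled cortex and replicate 2 amygdala. The mice were male by the study's methods, and their age at sampling was not given in the sources used here. No group without restraint stress is among these libraries, so every comparison is between restrained mice. It is not stated whether a library held 1 mouse or a pool, so the p-values measure the spread between libraries, which may be technical in part. The libraries held between 15902013 and 21712033 counts on genes, and 3.59% to 4.55% of these were on mitochondrial genes. All 9 genes had counts in all 8 libraries, from 91 counts of Gpr34 in RS 2 to 3664 counts of Sall1 in vehicle 1.

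Some libraries stood apart from their labels. Vehicle 1, labelled cortex, had a summed level of 1223 CPM (counts relative to the TMM-scaled total of a library) over 6 genes of the olfactory bulb, against 18.8 to 46.5 CPM in the other 7 libraries. S100a5, one of these olfactory genes, had 1131 counts there and 0 in each of the other 7 libraries. The 2 amygdala-labelled libraries summed to 767.2 and 892.1 CPM over 6 genes of the striatum, against 60.0 to 102 CPM in the 6 cortex-labelled libraries. Their sums over 6 amygdala genes, 66.4 and 71.2 CPM, lay within the 31.5 to 85.6 CPM of the cortex-labelled libraries. Genes of the choroid plexus summed to 1594 CPM in PTS + RS 1 and 45.0 CPM in PTS + RS 2. In RS 1 and RS 2 they summed to 1797 and 3743 CPM. In the other table they summed to 1489 CPM in RGFP109 1 and to between 8.31 and 13.1 CPM in the other 3 libraries. The counts of the 9 genes past the test are therefore given with and without each library.

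The level of each gene was first compared across the 8 libraries. To set genes beside each other, the deposited FPKM (fragments per kilobase of gene length, scaled to library size) was used, and the 2 tables were treated as separate experiments, with no test across them.

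**Figure D1:**
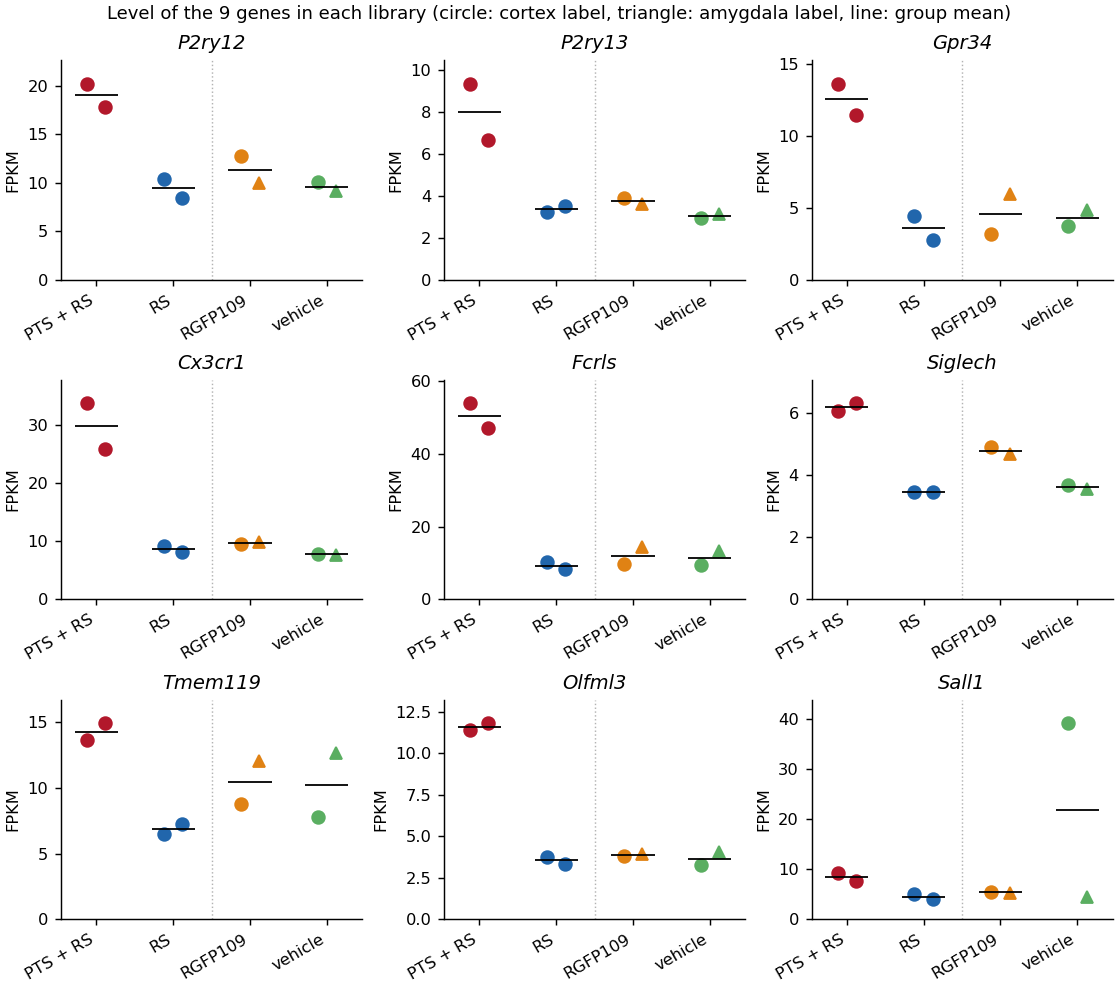
The plot of gene levels shows the FPKM of each of the 9 genes (vertical axis, linear from 0) in each of the 8 libraries by group (horizontal axis), with circles for cortex-labelled and triangles for amygdala-labelled libraries, a line for the mean of 2 libraries, and a dotted line between the 2 tables. For every gene the 2 PTS + RS libraries lie above the 2 RS libraries, and vehicle 1 stands out for Sall1 at 39.1 FPKM.

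P2ry12 and P2ry13 encode receptors for ADP, the nucleotide released by injured cells, and P2ry12 guides the processes of microglia towards it. P2ry12 measured 20.2 and 17.9 FPKM in PTS + RS 1 and 2, 10.4 and 8.44 in RS 1 and 2, 12.7 and 9.92 in RGFP109 1 and 2, and 10.02 and 9.17 in vehicle 1 and 2. P2ry13 measured 9.36 and 6.64 FPKM in PTS + RS, 3.21 and 3.51 in RS, 3.88 and 3.59 with RGFP109, and 2.96 and 3.13 with vehicle. Both were highest in the PTS + RS libraries, and their RS, RGFP109 and vehicle libraries lay close together. The 2 genes are neighbours on chromosome 3 of GRCm38, P2ry12 at chr3:59216272-59262871 and P2ry13 at chr3:59207892-59210882, both on the minus strand and 5390 bases apart. Both lie within Med12l, a gene of the opposite strand, and it is not stated whether strand was used in counting. Med12l itself measured 45.9 and 45.8 CPM in PTS + RS and 47.6 and 49.97 in RS.

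Gpr34 encodes a receptor for the lipid lysophosphatidylserine. It measured 13.6 and 11.4 FPKM in PTS + RS, 4.46 and 2.74 in RS, 3.15 and 5.97 with RGFP109, and 3.77 and 4.85 with vehicle. It lies at chrX:13632089-13640858 on the plus strand, within Cask of the opposite strand. Cask measured 73.4 and 63.7 CPM in PTS + RS and 65.4 and 67.8 in RS. With RGFP109 it measured 60.8 and 79.7 CPM, and with vehicle 115 and 71.1 CPM. Cx3cr1 encodes the receptor of fractalkine, a chemokine that neurons carry on their surface. It measured 33.8 and 26.0 FPKM in PTS + RS, 9.17 and 8.18 in RS, 9.47 and 9.89 with RGFP109, and 7.82 and 7.73 with vehicle. Outside the PTS + RS group of the first experiment, its 6 libraries stayed between 7.73 and 9.89 FPKM. Its annotated span, chr9:119901616-120069879 on the minus strand, overlaps 9 other genes, of which 3 share its strand, so its counts can depend on how overlapping reads were assigned.

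Fcrls encodes a scavenger receptor related to Fc receptors. It was the most abundant of the 9 in PTS + RS, at 53.9 and 47.1 FPKM, against 10.2 and 8.27 in RS. It measured 9.69 and 14.4 with RGFP109 and 9.35 and 13.2 with vehicle, higher in the amygdala-labelled library of each group. Siglech encodes a sialic acid binding lectin that signals through the adaptor Tyrobp. It measured 6.05 and 6.30 FPKM in PTS + RS, 3.46 and 3.44 in RS, 4.89 and 4.66 with RGFP109, and 3.69 and 3.55 with vehicle. Its replicates lay close together in every group. Tmem119 encodes a membrane protein used to tell microglia from other macrophages. It measured 13.7 and 14.95 FPKM in PTS + RS, 6.50 and 7.25 in RS, 8.78 and 12.1 with RGFP109, and 7.77 and 12.7 with vehicle, again higher in the amygdala-labelled libraries. Fcrls (chr3:87250758-87263738, minus), Siglech (chr7:55768178-55778925, plus), Tmem119 (chr5:113793729-113800516, minus), Olfml3 (chr3:103722222-103738001, minus) and Sall1 (chr8:89027235-89044162, minus) overlap no other gene in the table.

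Olfml3 encodes a secreted protein with an olfactomedin domain. It measured 11.4 and 11.8 FPKM in PTS + RS, 3.75 and 3.32 in RS, 3.80 and 3.92 with RGFP109, and 3.25 and 4.05 with vehicle. Sall1 encodes the zinc finger transcription factor of the set. It measured 9.27 and 7.58 FPKM in PTS + RS, 4.96 and 3.94 in RS, 5.34 and 5.29 with RGFP109, and 39.1 and 4.49 in vehicle 1 and 2. Vehicle 1 alone was far from the other 7 libraries.

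The order of the 9 genes differed between groups. In PTS + RS the mean level fell from Fcrls (50.5 ± 4.8 FPKM, SD, n = 2) over Cx3cr1 (29.9 ± 5.5) and P2ry12 (19.0 ± 1.7) to Tmem119 (14.3 ± 0.91), and the libraries of these 4 did not overlap from each gene to the next. Gpr34 and Olfml3 overlapped, as did Sall1 and P2ry13, and Siglech was lowest at 6.18 ± 0.18. In RS, P2ry12 (9.40 ± 1.4), Fcrls (9.24 ± 1.4) and Cx3cr1 (8.67 ± 0.70) were highest and overlapped, Tmem119 followed without overlap, and Sall1, Gpr34, Olfml3, Siglech and P2ry13 each overlapped the next. With RGFP109, Fcrls, P2ry12, Tmem119 and Cx3cr1 overlapped at the top. With vehicle, Fcrls, Tmem119 and P2ry12 overlapped, and Sall1 came first by mean only through vehicle 1. The ratio of Fcrls to P2ry12 in CPM was 2.44 and 2.42 in the PTS + RS libraries and 0.902 and 0.898 in the RS libraries. It was 0.697 and 1.34 in RGFP109 1 and 2 and 0.855 and 1.32 in vehicle 1 and 2, and so exceeded 1 in the amygdala-labelled libraries only among these 4.

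Promoters were read from RefSeq (GRCm38.p6), as the 250 bases before an annotated start, to show the sequence upstream of genes that changed together. An entry was found for 7 of the 9 genes, with 9 windows. Myeloid genes are often bound by PU.1, the product of Spi1, and letters found in sequences that it binds, GAGGAA and GGAAGT, were searched on both strands. GAGGAA is present in 23.3% and GGAAGT in 19.7% of 32851 windows of the same length over all genes, and either in 36.7%. Of the 9 windows here, 5 held either of them, 1 each of P2ry12, P2ry13, Fcrls, Siglech and Sall1. A match of letters is a description and no binding site. Windows that touch no annotated untranslated region are shown for P2ry13 (chr3:59210883-59211132), Olfml3 (chr3:103738002-103738251) and 2 starts of Sall1 (chr8:89044163-89044412 and chr8:89042863-89043112), all on the minus strand, 5′ to 3′. Capitals mark the searched letters.
P2ry13: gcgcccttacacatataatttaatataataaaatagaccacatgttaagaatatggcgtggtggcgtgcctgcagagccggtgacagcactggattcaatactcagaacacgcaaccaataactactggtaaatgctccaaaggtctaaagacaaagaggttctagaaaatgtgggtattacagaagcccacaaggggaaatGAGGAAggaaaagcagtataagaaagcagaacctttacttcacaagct
Olfml3: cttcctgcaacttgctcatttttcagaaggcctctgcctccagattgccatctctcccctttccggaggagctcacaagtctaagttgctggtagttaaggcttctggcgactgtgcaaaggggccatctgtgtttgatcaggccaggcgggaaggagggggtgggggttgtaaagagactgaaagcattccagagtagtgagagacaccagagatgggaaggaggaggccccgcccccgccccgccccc
Sall1, upstream start: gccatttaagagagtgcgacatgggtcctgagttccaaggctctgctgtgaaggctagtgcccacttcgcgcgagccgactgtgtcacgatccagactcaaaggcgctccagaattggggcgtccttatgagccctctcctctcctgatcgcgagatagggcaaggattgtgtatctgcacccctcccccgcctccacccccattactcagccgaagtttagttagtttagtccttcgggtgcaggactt
Sall1, inner start: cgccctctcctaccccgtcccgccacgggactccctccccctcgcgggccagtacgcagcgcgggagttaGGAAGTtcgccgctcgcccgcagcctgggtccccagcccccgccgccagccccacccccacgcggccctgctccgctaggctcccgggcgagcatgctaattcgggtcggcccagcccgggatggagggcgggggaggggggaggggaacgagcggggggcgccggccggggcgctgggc
In P2ry13 the letters GAGGAA stand 48 to 43 bases before the start, and in the inner Sall1 window GGAAGT stands 180 to 175 bases before it. The Olfml3 window and the upstream Sall1 window hold neither. A further Sall1 window (chr8:89043513-89043762) also touches no annotated untranslated region, holds neither and is not shown.

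The comparison of PTS + RS with RS asks what a cortical stroke adds to restraint stress in the cortex. All 9 genes were higher in PTS + RS. Tested with edgeR (quasi-likelihood) and adjusted by Benjamini-Hochberg for the 17581 genes tested, 9 of 9 passed at an adjusted p under 0.05, where 2.96% of all tested genes passed in this direction and 0.586% in the other. The log2 fold change ranged from 0.84 to 2.45 with a median of 1.26, and the median over all tested genes was -0.0015. In 7 of the 9 it was at least 1, with an adjusted p under 0.05 as well, a limit that 2.12% of all tested genes passed upwards and 0.091% downwards. The libraries of the 2 groups did not overlap for any of the 9, and 25.7% of all tested genes were likewise separate and higher, 24.5% separate and lower. In these tissue samples, more cells of a type and more RNA per cell cannot be told apart. Without Sall1, the genes summed to 509 and 444 CPM in the PTS + RS and 160 and 142 CPM in the RS libraries. Vehicle 1 and RGFP109 1, labelled cortex and from the PTS + RS mice of the other experiment, summed to 150 and 175 CPM. Vehicle 1 also had the olfactory bulb level given above. The difference between the experiments was not tested.

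**Figure D2:**
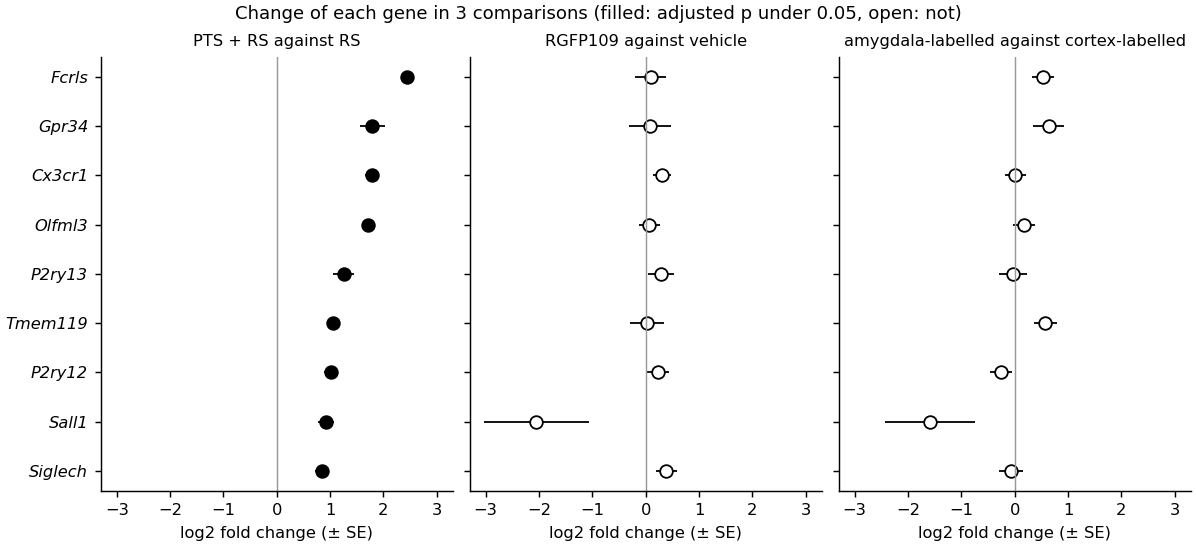
The plot of changes gives the log2 fold change of each gene (horizontal axis, bars are the SE) in 3 comparisons, with filled circles for an adjusted p under 0.05 and open circles otherwise. All 9 circles are filled and right of 0 in PTS + RS against RS, while in the other comparisons all are open, and Sall1 lies at -2.05 and -1.59 with the widest bars.

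Fcrls rose most, from 23.9 and 19.4 CPM in RS to 127 and 110 CPM in PTS + RS, a log2 fold change of 2.45 (SE 0.13, edgeR adjusted p = 3.8e-04), and it ranked 146 among the 17581 genes by this change. Cx3cr1 rose from 41.6 and 37.0 CPM to 153.8 and 117.8 CPM (1.79, SE 0.14, edgeR adjusted p = 0.0013). Its ligand Cx3cl1 measured 507 and 561 CPM in PTS + RS and 606 and 604 in RS and did not pass (-0.18, adjusted p = 0.36). Gpr34 rose from 9.38 and 5.74 CPM to 28.8 and 24.0 CPM (1.80, SE 0.23, edgeR adjusted p = 0.0087). Pla1a, an enzyme that makes the ligand of Gpr34, stayed between 1.01 and 1.21 CPM in the 4 libraries and did not pass (-0.03, adjusted p = 0.98). Olfml3 rose from 23.2 and 20.5 CPM to 70.8 and 73.1 CPM (1.72, SE 0.10, edgeR adjusted p = 4.6e-04). For each of these 4 genes the lower PTS + RS library was over 2 times the higher RS library.

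The ADP receptors rose less. P2ry13 went from 8.17 and 8.90 CPM to 23.9 and 16.9 CPM (1.26, SE 0.20, edgeR adjusted p = 0.020), and P2ry12 from 26.5 and 21.6 CPM to 52.0 and 45.7 CPM (1.02, SE 0.13, adjusted p = 0.0088). Kcnk13, which encodes a potassium channel that works with P2ry12, measured 10.1 and 12.2 CPM in PTS + RS and 9.99 and 8.08 in RS (0.30, adjusted p = 0.46). Entpd1 and Nt5e, which encode surface enzymes that degrade nucleotides stepwise to adenosine, did not pass either (0.82, adjusted p = 0.066, and 0.08, adjusted p = 0.91). Tmem119 rose from 15.1 and 16.9 CPM to 31.9 and 34.8 CPM (1.06, SE 0.12, edgeR adjusted p = 0.0049).

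Siglech and Sall1 had the smallest rises of the 9. Siglech went from 11.8 and 11.7 CPM to 20.7 and 21.4 CPM (0.84, SE 0.13, edgeR adjusted p = 0.017). Its adaptor Tyrobp rose from 6.84 and 5.30 CPM to 49.9 and 43.6 CPM (2.94, adjusted p = 3.8e-04). Siglech is also carried by plasmacytoid dendritic cells, of which 0 of 4 tested marker genes passed, with a median of 0.73, and the highest, Bst2, at 1.51 (adjusted p = 0.057). Sall1 rose from 26.3 and 20.8 CPM to 49.3 and 40.1 CPM (0.92, SE 0.15, edgeR adjusted p = 0.023). The calls of these 2 depended on single RS libraries: the adjusted p of Siglech was 0.081 without RS 1 and 0.083 without RS 2, and that of Sall1 was 0.054 without RS 2. The count of the 9 genes past the test was 9 without either PTS + RS library, 8 without RS 1 and 7 without RS 2, where 5.58% and 7.69% (without PTS + RS 1 and 2), 1.91% and 1.84% of all tested genes passed higher.

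The 9 genes were then set beside other groups of microglial and macrophage genes, each a list written from general knowledge. Of 15 other homeostatic microglia genes, 10 passed higher and 0 lower, with a median of 0.99. Among those that rose were Abi3, a regulator of actin (1.80, adjusted p = 0.030, 4.61 and 3.41 CPM against 1.21 and 1.07), and Csf1r, the receptor of colony-stimulating factor 1 on which microglia depend for survival (1.69, adjusted p = 0.0014, 308 and 243 CPM against 91.9 and 78.2). Ltc4s (0.11, adjusted p = 0.91) and Cmtm6 (0.40, adjusted p = 0.24) were lowest and did not pass. Between 8 and 12 of the 15 passed when 1 library was left out.

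Of 9 factors and signals that maintain microglia, 6 passed higher and 0 lower, with a median of 1.35. Runx1 (2.43, adjusted p = 0.017), Irf8 (2.23, adjusted p = 0.0014) and Spi1 (2.23, adjusted p = 0.012), which encode transcription factors of the myeloid lineage, were highest. Tgfb1, the cytokine on which the homeostatic programme depends, rose by 1.42 on the log2 scale (adjusted p = 0.0050). Of the ligands of Csf1r, Csf1 rose (1.11, adjusted p = 0.0027, 68.1 and 62.4 CPM against 32.2 and 28.3), while Il34 measured 37.0 and 42.2 CPM in PTS + RS and 40.7 and 39.0 in RS (-0.01, adjusted p = 0.98). Smad3, which relays the TGF-beta signal, did not pass either (0.04, adjusted p = 0.85).

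General myeloid and disease-associated genes were next. Every gene of the list named pan-myeloid activation genes had counts in both RS libraries too. Since more cells and more RNA per cell cannot be told apart here, a rise of this list alone does not show activation. All 10 of the pan-myeloid activation genes passed, with a median of 2.57 and a range from Aif1 (1.97, adjusted p = 0.0031), which encodes Iba1, to Fcer1g (3.03, adjusted p = 3.8e-04). Among them Cd68, a lysosomal protein of phagocytes, rose by 3.0 (adjusted p = 1.4e-04) and C1qb, a part of complement C1q, by 2.78 (adjusted p = 8.0e-05). Of 12 disease-associated microglia genes 11 passed, with a median of 2.4. Clec7a (5.97, adjusted p = 0.0011) and Spp1, osteopontin (5.91, adjusted p = 5.7e-04), were among the highest, and Cst7, at 18.8 and 17.4 CPM against 0 and 0.126 CPM, was at least 102-fold higher, taking 3 counts in each RS library as the floor. Cd63 (0.58, adjusted p = 0.090) was the one gene of this list that did not pass. These are fold changes per gene, and differences between lists were not tested.

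**Figure D3:**
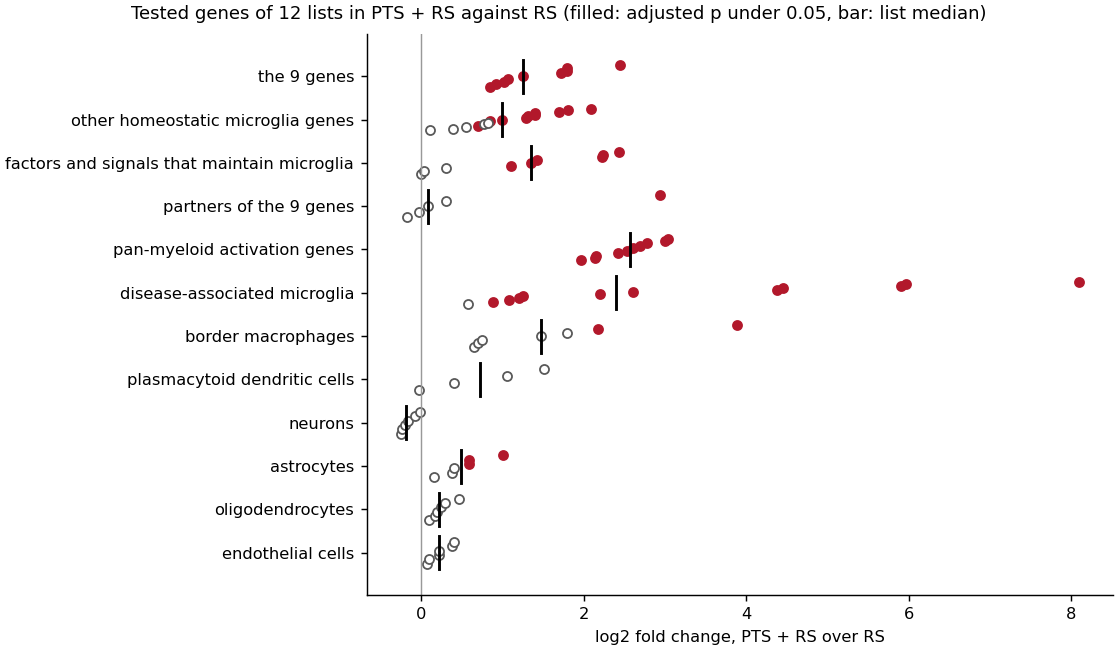
The plot of lists gives the log2 fold change of PTS + RS over RS (horizontal axis) for each tested gene of 12 lists, filled where the adjusted p is under 0.05 and open otherwise, with a bar at the median of each list. The 9 genes lie between 0.84 and 2.45 around a median of 1.26, the pan-myeloid genes around 2.57, and the neuronal genes around -0.18. The rightmost circle, Cst7, is a fitted value that depends on near-zero counts in RS.

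Markers of other cells moved as follows. Of 8 border macrophage genes 7 were tested and 2 passed, Ms4a7 (3.89, adjusted p = 0.022) and Stab1 (2.17, adjusted p = 4.8e-04), with a median of 1.48. With 1 library left out, 2 to 4 passed and the median ranged from 0.84 (without PTS + RS 1) to 1.64 (without PTS + RS 2), and limma-voom called 1. Their summed level was 168 and 121 CPM in PTS + RS and 39.7 and 35.8 in RS, and Mrc1, a defining gene of these cells, measured 12.1 and 3.95 CPM against 5.46 and 4.42. Of 7 genes of blood monocytes and neutrophils 0 had enough counts to be tested, and they summed to 2.10 and 1.74 CPM against 0.497 and 0.316, with 1 to 3 of the 7 at 0 in each library. Platelets also carry P2ry12, and 1 of their 4 genes was tested and did not pass, with a sum of 2.63 to 2.98 CPM in the 4 libraries. The part of these cells in the changes of the 9 genes was not tested.

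Of 6 astrocyte genes 3 passed higher with a median of 0.49, led by the water channel Aqp4 (1.01, adjusted p = 0.014), and this count ranged from 1 to 5 when 1 library was left out. Of 6 genes each of neurons, oligodendrocytes and endothelial cells 0 passed, with medians of -0.18, 0.22 and 0.22. Of 6 choroid plexus genes 0 passed with a median of -1.88, and without PTS + RS 1, which holds nearly all of the PTS + RS choroid plexus counts, the 9 genes had 9 calls and a median of 1.121. In that fit the choroid plexus genes all passed lower, 6 of 6 with a median of -5.34, while 2 passed without PTS + RS 2, 1 without RS 1 and 0 without RS 2. Of 4 tested olfactory bulb genes and 6 cerebral cortex genes 0 passed (medians 0.22 and 0.0031), and of 5 tested amygdala genes 0 passed (-0.063). Of 6 striatum genes 1 passed lower, Ppp1r1b (-0.78, adjusted p = 0.047).

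The mean log2 CPM of the 9 genes was compared with that of the 10 pan-myeloid genes in each library. The 9 genes lay 0.60 and 0.54 below the pan-myeloid genes in PTS + RS 1 and 2 and 0.51 and 0.52 above them in RS 1 and 2. In RGFP109 1 and vehicle 1, labelled cortex, they lay 0.38 and 0.87 above, the latter 0.47 when Sall1 is left out. In RGFP109 2 and vehicle 2, labelled amygdala, they lay 0.36 and 0.77 below. The 9 genes thus lay below in the PTS + RS libraries of the first experiment and in the amygdala-labelled libraries. They lay above in the RS libraries, RGFP109 1 and vehicle 1. RGFP109 1 and vehicle 1 were also cortex-labelled libraries of PTS + RS mice. They had the choroid plexus level and the olfactory bulb level given above, in this order. Experiment, treatment and the tissue taken can differ between these libraries, and their part in the sign, like that of stroke, was not tested. The sign also depends on the genes chosen for the 2 lists.

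**Figure D4:**
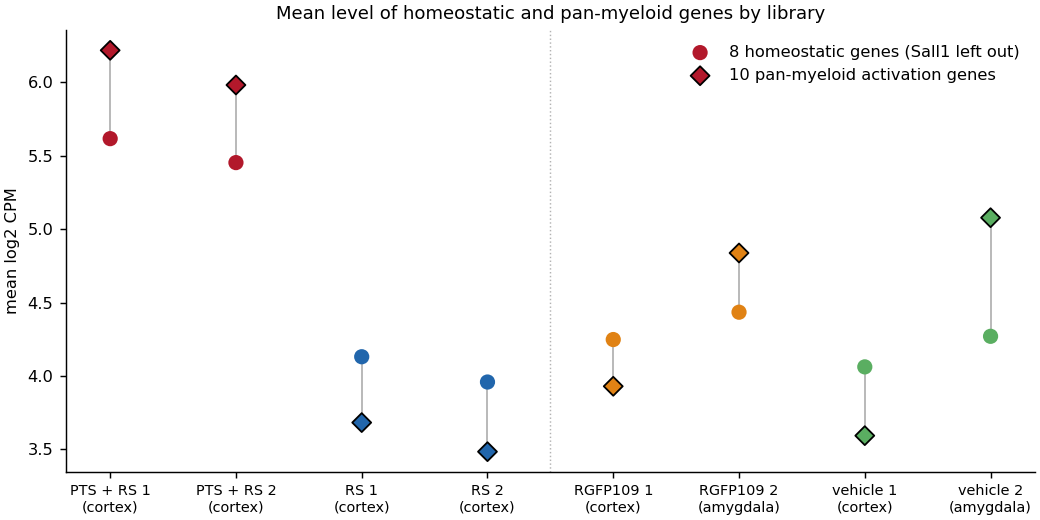
The plot of mean levels shows, for each library (horizontal axis, with its tissue label), the mean log2 CPM of 8 homeostatic genes without Sall1 (circles) and of 10 pan-myeloid activation genes (diamonds with a black edge), coloured by group, with a dotted line between the 2 tables. Circles lie below diamonds in both PTS + RS and both amygdala-labelled libraries and above them in the other 4.

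The comparison of RGFP109 with vehicle asks what the inhibitor changes in PTS + RS mice. Of the 9 genes 0 passed (edgeR, adjusted p = 0.9997 for each), where 0% of the 17565 tested genes passed, and 0 of the 9 had an unadjusted p under 0.05, against 206 of all tested genes. DESeq2 and limma-voom also called 0 of the 9. Each group of this fit held 1 cortex-labelled and 1 amygdala-labelled library, so the spread between libraries includes the difference between the labels. With the replicate number, here also the tissue label, as a block, 0 of the 9 and 0 of all tested genes passed. The lack of calls thus does not show that the inhibitor left these genes unchanged. The log2 fold change was above 0 for 8 genes and below 0 for Sall1, with a median of 0.090. The libraries did not overlap for 3 genes, all higher with RGFP109, while 12.8% of all tested genes did not overlap in this direction and 13.8% in the other. These were Siglech (16.6 and 15.8 CPM against 12.6 and 12.1), Cx3cr1 (42.7 and 44.5 against 35.7 and 35.0) and P2ry13 (9.83 and 9.07 against 7.57 and 7.94). Their log2 fold changes were 0.39 (SE 0.20), 0.31 (SE 0.16) and 0.29 (SE 0.24), and none passed the test. For 2 libraries against 2, an exact permutation test of a single gene cannot give a two-sided p below 0.333. This limit holds for PTS + RS against RS as well.

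Since the replicate number of these libraries is also the tissue label, RGFP109 was compared with vehicle within each label, as single libraries with no test. On the log2 scale, P2ry12 was higher by 0.33 in the cortex-labelled pair and 0.11 in the amygdala-labelled pair, P2ry13 by 0.37 and 0.19, Cx3cr1 by 0.26 and 0.35, Siglech by 0.39 and 0.38, and Fcrls by 0.04 and 0.13. These 5 genes were thus higher with RGFP109 in both pairs. Tmem119 (0.16 and -0.07), Olfml3 (0.21 and -0.06), Gpr34 (-0.27 and 0.29) and Sall1 (-2.88 and 0.23) had opposite signs in the 2 pairs. Over all tested genes, 48.2% of the ratios in the cortex-labelled pair and 49.6% in the amygdala-labelled pair were above 0. The share of all tested genes higher in both pairs, or of opposite sign, was not counted, so these signs are a description.

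Sall1 was set by vehicle 1. It had 3664 counts (208 CPM) there against 436 (23.7 CPM) in vehicle 2, 444 (28.2 CPM) in RGFP109 1 and 596 (27.9 CPM) in RGFP109 2. The ratio of Sall1 to P2ry12 was 8.07 in vehicle 1 and between 0.867 and 1.10 in the other 7 libraries. Its log2 fold change was -2.05 (SE 0.98, edgeR adjusted p = 0.9997), turned to 0.23 without vehicle 1, and was -2.89 without vehicle 2, where it passed the edgeR test (adjusted p = 0.025) with 15 genes higher and 78 lower, 0.5% of all tested genes. The olfactory bulb genes moved with it in this library. Cdhr1 measured 534 CPM in vehicle 1 and 5.66 to 10.2 CPM in the other libraries, and Doc2g 118 CPM against 1.35 to 2.09 CPM. Their part in the level of Sall1 was not tested. The other 8 genes summed to 150 CPM in vehicle 1, 174 in vehicle 2, and 175 and 193 with RGFP109, so vehicle 1 was the lowest of the 4 for them.

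**Figure D5:**
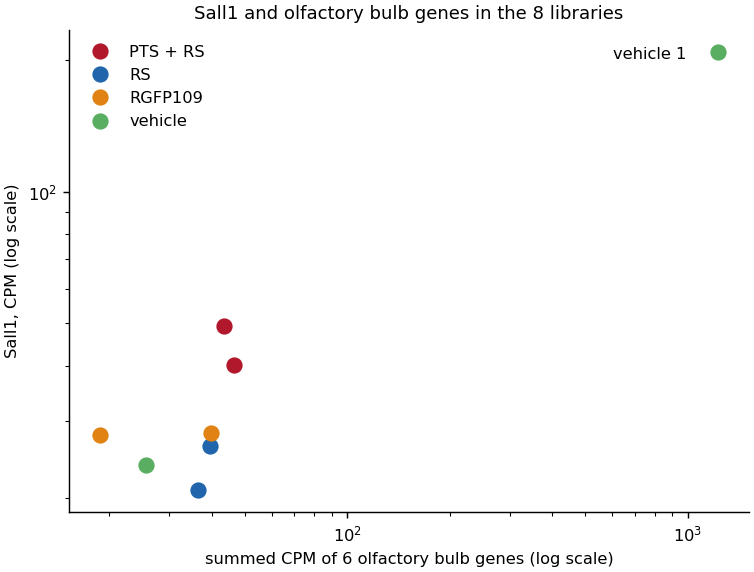
The plot of Sall1 gives its CPM (vertical axis, log scale) against the summed CPM of 6 olfactory bulb genes (horizontal axis, log scale) in the 8 libraries, coloured by group. Vehicle 1 lies alone at 208 CPM of Sall1 and 1223 CPM of olfactory bulb genes, and the other 7 libraries lie between 20.8 and 49.3 CPM of Sall1.

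Without vehicle 1, Fcrls (-0.14), Olfml3 (-0.08), Gpr34 (-0.09) and Tmem119 (-0.29) also turned below 0, while P2ry12 (0.29), P2ry13 (0.24), Cx3cr1 (0.31) and Siglech (0.41) stayed above 0, and 0 of the 9 passed. Of the other lists, 0 of 15 homeostatic genes (median 0.11), 0 of 9 maintenance factors (-0.079), 0 of 10 pan-myeloid genes (-0.19), 0 of 12 disease-associated genes (-0.26) and 0 of 5 partner genes (-0.42) passed. These medians turned sign with the library left out, ranging from -0.14 to 0.48, -0.49 to 0.32, -0.81 to 0.98, -1.46 to 0.79 and -0.94 to 0.12 in the same order, the lowest without RGFP109 2 or vehicle 1 and the highest without vehicle 2 or RGFP109 1. Among the disease-associated genes 2 lay above 0, Lpl (0.57) and Cst7 (0.53), and 10 below. Among the partner genes, Tyrobp measured 8.44 and 18.9 CPM with RGFP109 and 6.31 and 29.4 CPM with vehicle. Cx3cl1 measured 528 and 755 CPM against 560 and 779. Both were higher in the amygdala-labelled library of each group. Of the disease-associated genes, Lgals3 (-2.04) and Gpnmb (-1.71) were lowest, with 31.9 and 150 CPM in vehicle 2 and at most 6.40 and 44.7 CPM in the other 3 libraries.

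Markers of border macrophages (median -0.32), plasmacytoid dendritic cells (-0.0050), neurons (0.069), astrocytes (-0.072), oligodendrocytes (-0.086) and endothelial cells (0.062) also had 0 calls, as had those of platelets, blood monocytes and neutrophils, of which 1 and 2 genes were tested (medians -0.12 and -0.061). The genes of regions had 0 calls as well, with medians of 0.24 for cerebral cortex, 0.021 for amygdala, -0.10 for striatum, -5.13 for olfactory bulb and 3.51 for choroid plexus. Of these, the olfactory bulb median was -0.20 without vehicle 1 and -6.40 without vehicle 2, where 5 of 6 genes passed lower, and the choroid plexus median was -0.25 without RGFP109 1 and 4.62 without RGFP109 2. Those of striatum (-2.52 to 2.50), cerebral cortex (-0.23 to 0.75), amygdala (-0.39 to 0.60) and border macrophages (-0.60 to 0.27) crossed 0 as well.

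The amygdala-labelled libraries were compared with the cortex-labelled libraries of the same 2 groups, with treatment as a term in the fit. Of the 9 genes 0 passed (edgeR, adjusted p between 0.54 and 0.99), where 0% of all tested genes passed, and 1 of the 9, Tmem119, had an unadjusted p under 0.05 (0.046), against 1607 of all tested genes. DESeq2 and limma-voom called 0 of the 9. The libraries did not overlap for 4 genes that were higher and 2 that were lower in the amygdala-labelled libraries, while 21.6% and 22.4% of all tested genes did so. Tmem119 measured 27.9 and 29.4 CPM in the amygdala-labelled and 20.4 and 18.2 CPM in the cortex-labelled libraries (0.57, SE 0.21). Fcrls measured 33.7 and 30.9 CPM against 22.6 and 22.1 (0.53, SE 0.20), and Gpr34 12.5 and 10.2 CPM against 6.60 and 7.96 (0.64, SE 0.29). Olfml3 was the fourth (0.17, SE 0.21). P2ry12 measured 25.2 and 23.4 CPM against 32.5 and 25.8 (-0.25, SE 0.21), and Sall1 was lower mainly through vehicle 1 (-1.59, SE 0.84).

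With 1 library left out and no treatment term, the count depended on which one. Without RGFP109 1, 3 of the 9 passed, Tmem119 and Fcrls higher and Sall1 lower, where 28.7% of all tested genes passed. Without vehicle 1, 3 passed higher, Tmem119, Fcrls and Gpr34, where 8.27% of all tested genes passed higher and 5.51% lower. Without RGFP109 2 or vehicle 2, 0 of the 9 and 0 of all tested genes passed by edgeR. All 10 pan-myeloid genes had a log2 fold change above 0, with a median of 1.30, as had all 12 disease-associated genes, with a median of 1.57, and 0 of either list passed the edgeR test, while DESeq2 called 4 and 5 of them. Without RGFP109 1, 9 of 10 pan-myeloid, 10 of 12 disease-associated, 9 of 15 other homeostatic and 6 of 9 maintenance genes passed higher, and without vehicle 1, 8, 9, 5 and 5 of them did. Tyrobp was at 1.69 (adjusted p = 0.38) and Spi1 at 0.82 (adjusted p = 0.63). Of 9 maintenance factors all 9 lay above 0 (median 0.82), and of 15 other homeostatic genes 12 did (median 0.48), against 5 of the 9 genes (median 0.015). The striatal genes, at a median of 3.36 with 0 calls, and 6 of 6 without RGFP109 1 or vehicle 1, moved with the same label, and the part of the tissue taken was not tested. Among the partners Cx3cl1 was at 0.49 (adjusted p = 0.61), and 8 of 8 border macrophage genes lay above 0 (median 0.77, 0 calls).

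Finally the genes of most like pattern were taken, as the highest Pearson correlation of log2 CPM over the 8 libraries, after each table was centred on its own mean. The points share their tables and the contrast of PTS + RS with RS, so these values are descriptions. The mean of the 9 includes Sall1, and in vehicle 1 the mean log2 CPM was 4.47 with Sall1 and 4.06 without it. The order of the genes most like this mean can therefore depend on that library, and a mean without Sall1 was not used. The gene most like the mean of the 9 was Rasgrp3, an activator of Ras (r = 0.998), at 33.5 and 29.2 CPM in PTS + RS, 14.9 and 12.6 in RS, 14.0 and 15.4 with RGFP109, and 15.6 and 14.3 with vehicle. It was followed by Ncstn, a subunit of gamma-secretase (0.991), P2ry6, a UDP receptor (0.991), Serp1, Cd274, Cmtm7, Mrpl35, Tab2, S1pr3 and Tmem173 (0.983). The nearest genes of single members differed. Fcrls was nearest to Tlr2, Fcgr1 and Ly86 (0.994 to 0.996), Tmem119 to Icam1, Fcgr3 and Tlr13 (0.991 to 0.997), and Cx3cr1 to Ncstn and Tmem173 (0.990 and 0.989). Olfml3 was nearest to Rpl6l, Tmem173 and Itgam, Gpr34 to Slfn8, Slc29a3 and Sh3glb1, P2ry12 to Eva1b, Gm3756 and Arhgap17, and Siglech to Ubap1, Gm6382 and Capn7. Genes of a pattern like that of P2ry13 included Gm10561 and A630001G21Rik (0.990 and 0.984). Sall1 was nearest to Btg1, Jam2 and Mtmr11 (0.995 to 0.998), and these 3 were also highest in vehicle 1, at 90.3, 141 and 22.01 CPM against at most 44.7, 50.1 and 8.35 CPM in the other 7 libraries.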

How the data were processed

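RNA-seq counts and FPKM per gene were taken from the 2 deposited tables. Per the study's methods, the authors aligned reads to GRCm38 with STAR (2.4.0), counted reads per gene with HTSeq (0.6.1) and named limma for gene calls. The deposited counts were not normalized, and the deposited FPKM were scaled by the authors to gene length and library size. The methods name RefSeq genes while the tables list Ensembl genes, and the methods and the labels name different library kits. The strand setting of the counting is not given in the sources used here. The authors' fold changes and p-values were not used, nor were 8 columns of normalized values per library.

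Counts were analysed in R 4.3.3 with edgeR 4.0.16 (filterByExpr, TMM, quasi-likelihood test, Benjamini-Hochberg adjustment, threshold 0.05). Groups came from the sample labels. The SE is the log2 fold change divided by the square root of its F. Log2 ratios of single libraries used a prior count of 2. DESeq2 1.42.0, limma-voom (limma 3.58.1), other normalization, no filter, left-out libraries and a replicate block were alternatives. The script was tested on simulated data. Same-numbered RGFP109 and vehicle libraries share a tissue label and deviated together (r = 0.30 over genes), and those of PTS + RS and RS share only a number. Sums and CPM used Python 3.11.15. The 9 genes, the 19 lists and the tests were chosen with earlier results of these data known. Named genes were the 9, their partners, at most the 3 highest and 2 lowest of a list, the 10 most like the mean of the 9 and the 3 most like each. Further genes were named after their values were seen. Some genes that the rule names are not reported here. Depth was 15902013 to 21712033 counts per library. Genes matched in both tables by position.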

Additional observations from a re-analysis of the deposited data

Results flagged for a closer look

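4 genes had log2 ratios of RGFP109 over vehicle of opposite sign in the cortex-labelled and the amygdala-labelled pair, and with 1 library of each kind the difference between the pairs was not tested. Sall1 stood at -2.88 in the cortex-labelled pair, which holds vehicle 1, and at 0.23 in the amygdala-labelled pair. Gpr34 stood at -0.27 and 0.29, Olfml3 at 0.21 and -0.06, and Tmem119 at 0.16 and -0.07. Cask, within which Gpr34 lies, stood at -0.92 and 0.165, and its part in the counts of Gpr34 was not tested. The share of all tested genes with opposite signs in the pairs was not counted.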

How the results depend on the processing

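For PTS + RS against RS, the 9 genes kept 9 calls with DESeq2's size factors, DESeq2, limma-voom, no filter on low counts and a replicate block, and 7 to 9 when 1 library was left out. The calls over all genes, 521 higher and 103 lower, were 1119 and 716 without the filter, 687 and 228 with the replicate block, and from 339 and 32 (without RS 2) to 1413 and 1278 (without PTS + RS 2). Siglech (0.84 and 0.83 on the log2 scale) did not pass without RS 1 or RS 2, nor Sall1 (0.76) without RS 2. Of 81 alternative log2 fold changes of the 9 genes in this comparison, 78 kept direction and call and 3 lost the call.

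For RGFP109 against vehicle the replicate block, which is here also the tissue label, changed no call of the 9 genes. Leaving out 1 library gave 0 to 1 calls of the 9 and ranges of log2 fold change that crossed 0, from -2.89 to 0.23 for Sall1, -0.22 to 0.36 for Fcrls, -0.082 to 0.24 for Olfml3, -0.46 to 0.46 for Gpr34 and -0.29 to 0.42 for Tmem119. The 1 call was Sall1 without vehicle 2, where 15 genes passed higher and 78 lower over all genes.

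For the amygdala-labelled against the cortex-labelled libraries, leaving out 1 library gave 0 to 3 calls. Siglech turned to 0.15 without RGFP109 1 and 0.13 without vehicle 2, P2ry13 to 0.18 and 0.076 in the same fits, and Cx3cr1 to -0.16 without RGFP109 2 and -0.090 without vehicle 1. Over all genes, 0 calls became 187 higher and 53 lower without the filter, 155 and 56 with DESeq2, 2831 and 2552 without RGFP109 1, and 1540 and 1025 without vehicle 1. The cause of these changes was not tested. Fits that left out a library had 1 library in an arm, assumed to vary like the others, and here no treatment term. One normalization over all 8 libraries moved no mean CPM of the 9 genes by more than 0.952%. Each group had 2 libraries, which limits the precision of every spread.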
